A study of Mus musculus with 12 samples.

Results

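Keratins are the intermediate filament proteins of epithelial cells, and the mouse keratin genes were followed here from a T cell leukemia state through reprogramming colonies to pluripotent cells. Members were the genes whose array annotation gives a symbol made of Krt, a number and at most 1 further letter, which leaves out keratin-associated proteins. The rule found 53 keratin genes among 22180 genes, 28 of them type I and 25 type II. They were read in 4 classes, with 6 keratins of simple epithelia, 18 of stratified epithelia, 24 of hair and hair follicle, and 5 others. Members were chosen by name, and each gene's probe set was selected on brightness (the highest mean over all arrays), the only measured value that entered the choice. Brightness mattered for 1 gene, Krt18, whose probe sets are both reported below.

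RNA abundance was measured on 12 Affymetrix arrays of the NOTCH1 leukemia mouse model, 3 arrays in each of 4 groups. In the series' own stage order these were leukemia cells taken from spleen, GFP+ colonies labelled partially reprogrammed, GFP- colonies labelled reprogrammed, and established iPS cells, labelled as derived from the leukemia. All 4 groups carry the genotype R26rtTA;Col1a12lox-4F2A, in which rtTA is expressed from Rosa26 and a doxycycline-inducible cassette at Col1a1 encodes Pou5f1, Sox2, Klf4 and Myc. The labels give no age, do not say what GFP marks, and give every leukemia array the same leukemia number. The titles number biological replicates but name no separate animals or cultures behind them, and the p-values therefore cover only the spread between these arrays. Levels are log2 values of a normalised probe-set signal, in which a difference of 1 is a 2-fold change, and each difference is given ± its standard error from limma. Calls were made where the p adjusted by Benjamini and Hochberg over all 22180 genes was under 0.05. Probe sets differ in brightness, so levels are compared between arrays and not between genes.

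A keratin filament is built from pairs of 1 type I and 1 type II chain, so the genes work in partners. Krt8 and Krt18 are the pair of simple, single-layered epithelia and the first keratins of the early embryo. Krt5 and Krt14 are the pair of basal cells in stratified epithelia, Krt6 with Krt16 and Krt17 are raised in wounded or rapidly dividing epidermis, and Krt1 and Krt10 replace the basal pair as epidermal cells mature. Lymphocytes do not normally rely on keratin filaments, and vimentin is their main intermediate filament.

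In the RefSeq order (GRCm38.p6), 27 type I genes lay in a cluster on chromosome 11. The 24 type II genes of the chromosome 15 cluster were joined there by the type I gene Krt18, which sits next to Krt8. RefSeq windows of 300 bases, 250 before to 50 after the gene start, were held for 35 of the 53 genes. Those of 4 genes that took different courses are shown, in gene sense and 5′ to 3′, with motif matches in capitals. Krt8 and Krt18 are partners that rose together in both kinds of colony, Krt20 rose in GFP+ colonies and overlapped leukemia in iPS cells, and Krt42 was highest in iPS cells.
Krt8, chr15:102004293-102004592, minus strand: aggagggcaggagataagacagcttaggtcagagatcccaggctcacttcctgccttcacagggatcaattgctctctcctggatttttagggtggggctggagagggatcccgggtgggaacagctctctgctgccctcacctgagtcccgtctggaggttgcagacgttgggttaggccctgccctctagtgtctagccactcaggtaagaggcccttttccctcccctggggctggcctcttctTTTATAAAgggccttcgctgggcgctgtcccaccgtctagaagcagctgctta
Krt18, chr15:102027966-102028265, plus strand: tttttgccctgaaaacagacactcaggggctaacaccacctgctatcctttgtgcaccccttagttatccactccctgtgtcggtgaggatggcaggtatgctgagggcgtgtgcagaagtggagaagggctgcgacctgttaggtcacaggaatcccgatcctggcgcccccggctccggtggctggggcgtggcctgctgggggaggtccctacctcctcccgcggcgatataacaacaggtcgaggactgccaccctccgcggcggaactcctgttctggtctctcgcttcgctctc
Krt20, chr11:99438104-99438403, minus strand: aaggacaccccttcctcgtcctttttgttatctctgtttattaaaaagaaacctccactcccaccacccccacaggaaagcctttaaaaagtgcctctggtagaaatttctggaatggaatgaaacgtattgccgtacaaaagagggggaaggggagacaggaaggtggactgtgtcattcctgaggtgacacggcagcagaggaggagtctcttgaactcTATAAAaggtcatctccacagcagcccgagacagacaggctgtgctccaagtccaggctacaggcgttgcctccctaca
Krt42, chr11:100269902-100270201, minus strand: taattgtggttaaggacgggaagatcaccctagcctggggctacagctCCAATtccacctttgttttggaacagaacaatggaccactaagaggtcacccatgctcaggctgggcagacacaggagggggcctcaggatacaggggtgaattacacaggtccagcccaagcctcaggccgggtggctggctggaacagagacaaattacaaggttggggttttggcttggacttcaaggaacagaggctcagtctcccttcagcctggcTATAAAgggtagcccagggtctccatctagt

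The windows were searched on both strands for 4 known promoter motifs. These were the TATA box, read as TATAAA, and the box named for its letters CCAAT. The GC box was read as GGGCGG, and the AP-1 site as TGANTCA. The Krt8 window held overlapping matches to TATAAA on opposite strands, printed as 1 run of capitals, close to the annotated start. The Krt20 window held TATAAA at -29 from the start, and the Krt42 window held CCAAT at -202 and TATAAA at +20. None of these 4 letter strings stood in the Krt18 window. Over 36 keratin windows, TATAAA stood in 52.8%, against 13.6% of the 32851 windows of all genes. GGGCGG stood in 5.56% of keratin windows, against 35.7% of all windows. CCAAT was found in 41.7% of keratin windows and 37.4% of all windows, and TGANTCA in 5.56% and 7.81%. By class, TATAAA stood in 2 of 5 simple, 3 of 12 stratified and 13 of 17 hair keratin windows. These are matches of letters, with no measurement of binding, and neighbouring keratin genes share ancestry.

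The T cell and pluripotency markers followed the labels for leukemia and iPS cells, and the colonies were mixed. The 5 T cell genes averaged between 10.85 and 10.89 on the leukemia arrays and between 5.26 and 7.05 on all other arrays. The 6 pluripotency genes averaged between 5.35 and 5.65 in leukemia, between 7.19 and 9.67 in GFP+ colonies, between 6.22 and 9.88 in GFP- colonies and between 9.53 and 9.63 in iPS cells. GFP- replicate 1, labelled reprogrammed, had the lowest of these pluripotency values among the colonies, with Nanog at 5.07, against 11.35 and 11.85 in GFP- replicates 2 and 3. Its keratinocyte markers averaged 9.18 over 9 genes, above all 3 GFP+ arrays. GFP+ replicate 3 stood apart in macrophage genes, whose mean over 6 genes was 9.59, against 6.93 and 6.97 on the other GFP+ arrays. The same mean was 8.50 on GFP- replicate 2, against 7.40 and 6.43 on GFP- replicates 1 and 3 and 7.36 to 7.39 in leukemia. The 8 fibroblast markers averaged between 6.23 and 6.31 in leukemia, 5.77 and 6.60 in GFP+ colonies, 5.59 and 6.18 in GFP- colonies, and 7.09 and 7.21 in iPS cells. In each comparison of iPS cells with another group, 5 of these 8 were called higher by limma, but not the same 5. Over all genes 12.4% were higher against leukemia, 6.15% against GFP+ colonies and 2.94% against GFP- colonies. Col1a1, Col1a2 and Lum were called higher against every other group. Thy1, which T cells also express, was lower in iPS cells than in leukemia and higher than in GFP+ colonies. The part of the fibroblast markers in the iPS values below was not tested. The counts in each comparison with colonies are therefore also given below without GFP- replicate 1 and GFP+ replicate 3. Both arrays were picked from these same data, so the counts without them are a description and no independent test. In such bulk samples, fewer cells of a type and less RNA per cell cannot be told apart.

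A small set of keratins was higher in the GFP+ colonies. Of the 53 genes, 11 were higher and 0 lower in GFP+ colonies than in leukemia by limma. Among all genes 21.9% were called in this comparison, 9.6% as higher and 12.3% as lower. The called share of keratins was thus 20.8% for higher and 0% for lower. By class, 5 of 6 simple, 5 of 18 stratified, 1 of 24 hair and 0 of 5 other keratins were called. The median difference was 4.68 over the simple class and 0.21 over the stratified class, against 0.02 over all keratins and -0.04 over all genes. The arrays of the groups did not overlap for 16 keratins that were higher and 6 that were lower, while 18.1% and 23.8% of all genes stood apart in the same way. Without GFP+ replicate 3 and GFP- replicate 1, 14 keratins were higher and 1 lower, while 15.7% of all genes were higher and 16.9% lower. Both filament types took part, with 6 of 28 type I and 5 of 25 type II genes called higher.

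**Figure D1:**
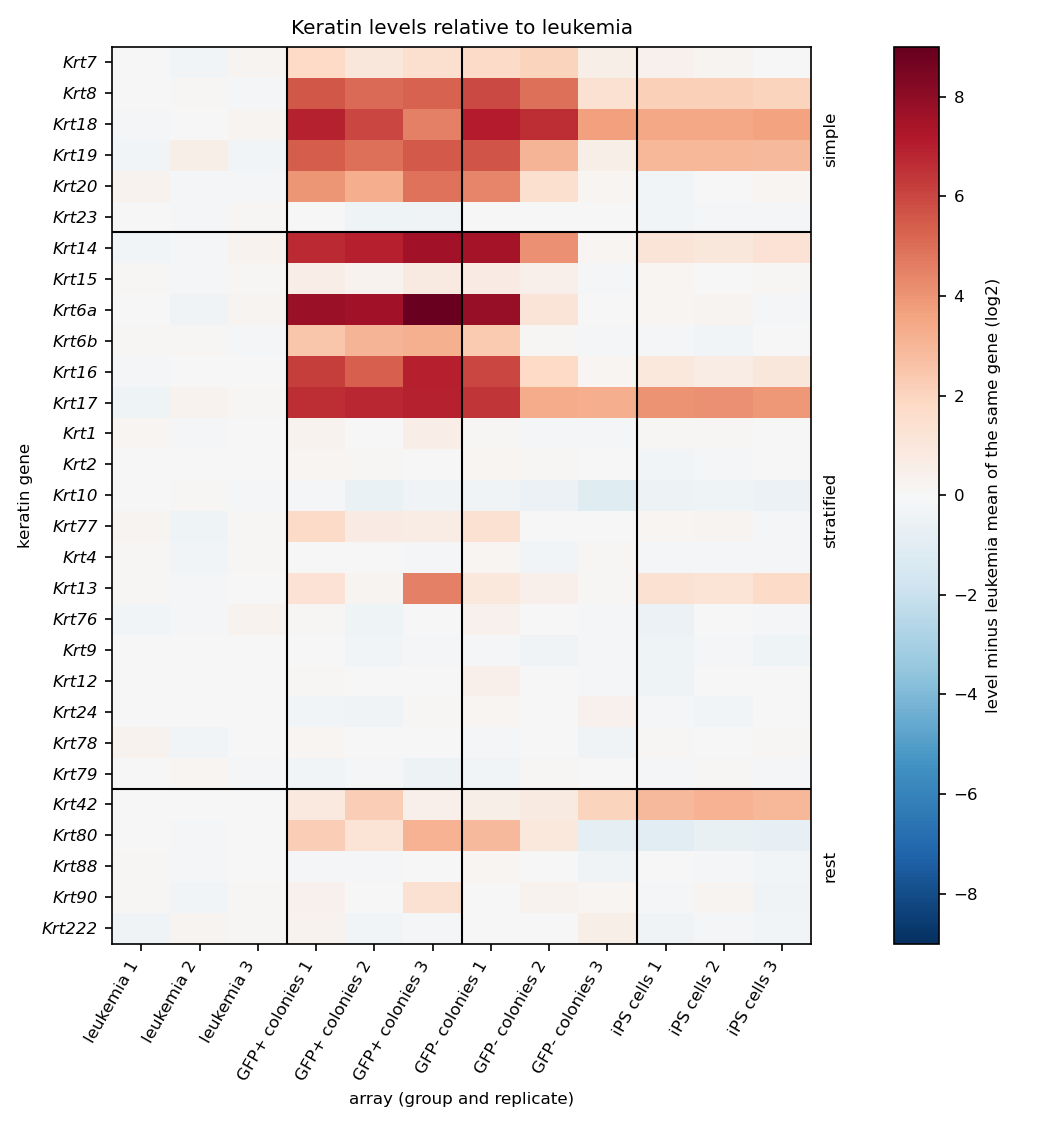
Level of 29 keratin genes (rows, by class; hair keratins are left out) on each of the 12 arrays (columns, by group and replicate), as the log2 level minus the leukemia mean of the same gene; red is above and blue below leukemia. The deep red block of Krt8, Krt18, Krt19, Krt20, Krt14, Krt6a, Krt16 and Krt17 covers the 3 GFP+ arrays and GFP- replicate 1. On GFP- replicate 2 it stays for Krt8 and Krt18 and fades for the others, and on GFP- replicate 3 it fades for all of them.

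Krt8 and Krt18 make up the filament of simple epithelia. Krt8, the type II chain, had levels of 6.54, 6.72 and 6.49 in leukemia, 12.20, 11.71 and 11.86 in GFP+ colonies, 12.54, 11.55 and 7.96 in GFP- colonies and 8.74, 8.70 and 8.57 in iPS cells. All colony and iPS arrays lay above all leukemia arrays, and GFP- replicate 3 was the lowest of them, below the iPS arrays. Krt8 was higher by 5.34 ± 0.87 in GFP+ colonies than in leukemia (40.5-fold, adjusted p = 0.00143 by limma) and by 4.10 ± 0.87 in GFP- colonies (adjusted p = 0.00683). The GFP- call was lost in a limma fit of the 6 GFP- and leukemia arrays alone. In iPS cells it stood 2.09 ± 0.87 above leukemia, which missed the threshold in the fit of all arrays (adjusted p = 0.115) but passed it in a limma fit of the 6 iPS and leukemia arrays alone (2.09 ± 0.09, adjusted p = 2.27e-07), where the spread of the colonies does not enter.

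Krt18, its type I partner, had levels of 4.92, 5.08 and 5.35 in leukemia, 12.03, 11.13 and 9.63 in GFP+ colonies, 12.18, 11.79 and 8.81 in GFP- colonies and 8.61, 8.63 and 8.73 in iPS cells on its brightest probe set. Every colony and iPS array again lay above every leukemia array. The difference from leukemia was 5.82 ± 0.80 in GFP+ colonies (56.4-fold, adjusted p = 0.000467 by limma), 5.81 ± 0.80 in GFP- colonies (adjusted p = 0.00047) and 3.54 ± 0.80 in iPS cells (adjusted p = 0.00807). A second, less bright Krt18 probe set read 5.01, 4.83 and 5.25 in leukemia, 7.65, 6.31 and 5.24 in GFP+ colonies, 8.42, 7.22 and 5.20 in GFP- colonies, and 4.69, 4.69 and 4.85 in iPS cells. It moved the same way in the colonies, with differences from leukemia of 1.37 and 1.92, but not in iPS cells, with a difference of -0.29. With the mean of both probe sets, Krt18 stood 1.63 ± 0.76 above leukemia in iPS cells (adjusted p = 0.157 by limma), so its call there depends on the probe set.

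Krt19 is a type I keratin of ducts and simple epithelia that pairs with several type II chains. Its levels were 4.77, 5.50 and 4.72 in leukemia, 10.44, 9.93 and 10.55 in GFP+ colonies, 10.69, 8.06 and 5.55 in GFP- colonies and 8.02, 7.99 and 7.91 in iPS cells. The GFP+ and iPS arrays formed tight groups above leukemia, while the GFP- arrays ran from the highest value of all to one just above the leukemia range. Krt19 was higher by 5.31 ± 0.94 in GFP+ colonies than in leukemia (adjusted p = 0.0024 by limma). The differences in GFP- colonies (3.10 ± 0.94, adjusted p = 0.0399) and iPS cells (2.98 ± 0.94, adjusted p = 0.0422) were called by limma but rested on the full set. Leaving out any single leukemia or iPS array ended the iPS call, and leaving out any single leukemia array or GFP- replicate 2 ended the GFP- call.

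Krt20, a keratin of intestinal and urothelial surface cells, had levels of 5.24, 4.73 and 4.73 in leukemia, 8.86, 8.19 and 9.82 in GFP+ colonies, 9.31, 6.37 and 5.07 in GFP- colonies and 4.68, 4.88 and 5.09 in iPS cells. It was high in GFP+ colonies and GFP- replicate 1, and the iPS arrays overlapped leukemia. The difference from leukemia was 4.06 ± 0.84 in GFP+ colonies (16.6-fold, adjusted p = 0.00597 by limma), 2.02 ± 0.84 in GFP- colonies (adjusted p = 0.124) and -0.02 ± 0.84 in iPS cells (adjusted p = 0.992). Krt7, a type II keratin of glandular and ductal epithelium, had levels of 5.82, 5.59 and 6.04 in leukemia, 7.64, 6.85 and 7.28 in GFP+ colonies, 7.57, 7.83 and 6.32 in GFP- colonies and 6.19, 6.05 and 5.87 in iPS cells. It was higher by 1.44 ± 0.34 in GFP+ colonies (adjusted p = 0.0125 by limma) and by 1.42 ± 0.34 in GFP- colonies (adjusted p = 0.014) than in leukemia. The first call was lost without leukemia replicate 2 or GFP+ replicate 1, and the second without leukemia replicate 2 or GFP- replicate 2. Krt23 was the 1 simple keratin that stayed near leukemia throughout, with levels of 4.53, 4.47 and 4.67 in leukemia, 4.54, 4.19 and 4.27 in GFP+ colonies, 4.53, 4.50 and 4.60 in GFP- colonies and 4.28, 4.45 and 4.40 in iPS cells.

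Among the stratified keratins, the wound-associated group moved as a whole. All 4 of Krt6a, Krt6b, Krt16 and Krt17 were higher in GFP+ colonies than in leukemia, with a median difference of 6.50. Krt6a, a type II keratin of wounded epidermis, nail and oral epithelium, had levels of 4.09, 3.72 and 4.31 in leukemia, 11.79, 11.63 and 12.92 in GFP+ colonies, 11.91, 5.22 and 4.09 in GFP- colonies and 4.19, 4.32 and 3.84 in iPS cells. The 3 GFP+ arrays and GFP- replicate 1 stood far above every other array, and the iPS arrays overlapped leukemia. Its difference of 8.07 ± 1.54 between GFP+ colonies and leukemia (269-fold, adjusted p = 0.00365 by limma) was the largest increase of all 22180 genes. Krt6b, its close relative, had levels of 5.51, 5.54 and 5.25 in leukemia, 7.90, 8.52 and 8.65 in GFP+ colonies, 7.81, 5.53 and 5.32 in GFP- colonies and 5.25, 5.20 and 5.43 in iPS cells, a difference of 2.93 ± 0.52 in GFP+ colonies (adjusted p = 0.00256). Krt6a and Krt6b are near-identical copies, so signal may be shared between their probe sets.

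Krt16, a type I partner of Krt6, had levels of 5.08, 5.20 and 5.23 in leukemia, 11.40, 10.55 and 12.17 in GFP+ colonies, 11.17, 6.98 and 5.37 in GFP- colonies and 6.15, 5.81 and 6.20 in iPS cells. The difference between GFP+ colonies and leukemia was 6.21 ± 1.12 (73.8-fold, adjusted p = 0.00258 by limma). Krt17, also a type I keratin of wounded and embryonic epidermis, had levels of 4.79, 5.45 and 5.26 in leukemia, 11.80, 11.93 and 12.11 in GFP+ colonies, 11.60, 8.54 and 8.41 in GFP- colonies and 9.23, 9.26 and 9.10 in iPS cells. Unlike Krt6a, Krt6b and Krt16, it lay far above leukemia on every colony and iPS array. Krt17 was higher than in leukemia by 6.78 ± 0.66 in GFP+ colonies (adjusted p = 4.51e-05 by limma), by 4.35 ± 0.66 in GFP- colonies (adjusted p = 0.000922) and by 4.03 ± 0.66 in iPS cells (adjusted p = 0.00129). These 3 calls were kept under all alternatives run.

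Krt14, the type I chain of basal cells, had levels of 5.16, 5.26 and 5.73 in leukemia, 12.07, 12.36 and 12.93 in GFP+ colonies, 12.84, 9.52 and 5.54 in GFP- colonies and 6.57, 6.43 and 6.68 in iPS cells. It was high in GFP+ colonies and GFP- replicate 1, intermediate in GFP- replicate 2, and within the leukemia range in GFP- replicate 3. Krt14 was higher by 7.07 ± 1.32 in GFP+ colonies than in leukemia (adjusted p = 0.00326 by limma), while the difference of 3.92 ± 1.32 in GFP- colonies missed the threshold (adjusted p = 0.0602). The iPS arrays all lay above the leukemia arrays, by 1.18 ± 1.32 (adjusted p = 0.598 in the fit of all arrays, and 0.000185 with a standard error of 0.15 in the fit of the 6 iPS and leukemia arrays). Its partner Krt5 had no probe set of its own. Krt15, another type I keratin of basal cells and the hair bulge, had levels of 4.90, 4.63 and 4.95 in leukemia, 5.40, 5.13 and 5.61 in GFP+ colonies, 5.58, 5.28 and 4.64 in GFP- colonies and 4.99, 4.87 and 4.90 in iPS cells, and its difference of 0.55 in GFP+ colonies was not called (adjusted p = 0.101).

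**Figure D2:**
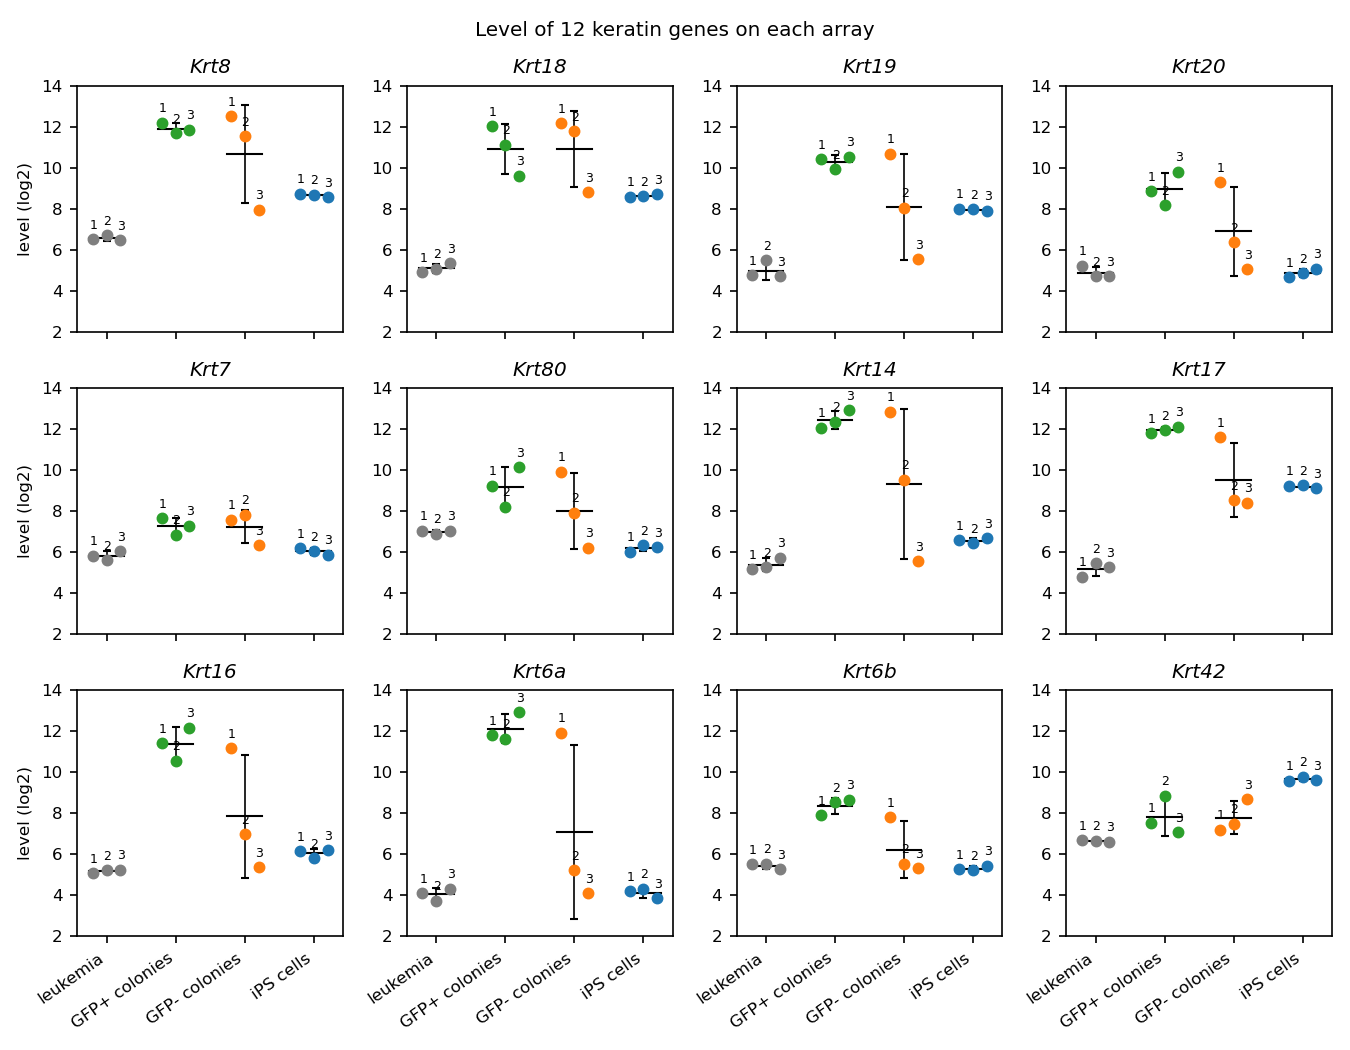
Level (log2, vertical axis from 2 to 14) of 12 keratin genes on each array, by group. Points are arrays numbered by replicate, the horizontal line is the group mean and the bar is ± 1 SD of 3 arrays. GFP- replicate 1 sits at the GFP+ level for Krt14, Krt17, Krt16, Krt6a and Krt20, and GFP- replicate 3 sits near the leukemia or iPS level of these genes.

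Of the 4 keratins of upper epidermal layers, Krt1, Krt2, Krt10 and Krt77, 0 were called higher than leukemia in any group by the limma fit of all arrays on the deposited values. Krt1 and Krt10 are the pair of the suprabasal layers. Krt10 had levels of 7.25, 7.30 and 7.01 in leukemia, 7.11, 6.57 and 6.84 in GFP+ colonies, 6.87, 6.67 and 6.08 in GFP- colonies and 6.72, 6.79 and 6.69 in iPS cells. It was lower by 0.65 in GFP- colonies than in leukemia (-0.65 ± 0.20, adjusted p = 0.0431 by limma), a call kept under 1 of 6 leave-one-out fits, the 1 without GFP- replicate 1, and lost after cyclic loess normalisation. Krt1 had levels of 5.59, 5.23 and 5.38 in leukemia, 5.75, 5.47 and 5.98 in GFP+ colonies, 5.48, 5.30 and 5.22 in GFP- colonies and 5.48, 5.50 and 5.41 in iPS cells. Krt2, a keratin of the upper epidermis, had levels of 4.66, 4.67 and 4.73 in leukemia, 4.85, 4.79 and 4.68 in GFP+ colonies, 4.85, 4.82 and 4.70 in GFP- colonies and 4.47, 4.58 and 4.73 in iPS cells. The values of Krt1 and Krt2 stayed within 1 log2 of leukemia on all arrays. Krt77 had levels of 5.87, 5.20 and 5.72 in leukemia, 7.33, 6.32 and 6.29 in GFP+ colonies, 6.96, 5.63 and 5.60 in GFP- colonies and 5.80, 5.81 and 5.42 in iPS cells, with GFP+ replicate 1 and GFP- replicate 1 the highest. Its difference of 1.05 ± 0.39 between GFP+ colonies and leukemia was not called (adjusted p = 0.0808 by limma), although the arrays of these groups did not overlap. It was called without GFP+ replicate 3 and GFP- replicate 1 (1.23 ± 0.29, adjusted p = 0.00796 by limma), with array weights (adjusted p = 0.00681) and with the replicate block (adjusted p = 0.0234). Krt1 was called higher in GFP+ colonies than in leukemia after cyclic loess normalisation (0.43 ± 0.13, adjusted p = 0.0386 by limma) and without GFP+ replicate 2 (adjusted p = 0.0407).

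Of the keratins of internal stratified epithelia such as the oesophagus, 0 of 3 were called in any comparison by the limma fit of all arrays. Krt13 had levels of 6.32, 6.12 and 6.16 in leukemia, 7.47, 6.44 and 10.71 in GFP+ colonies, 7.14, 6.67 and 6.33 in GFP- colonies and 7.54, 7.43 and 7.89 in iPS cells. GFP+ replicate 3 alone stood over 10, the array with the high macrophage genes, and the part of those cells in this value was not tested. The iPS arrays lay above leukemia, by 1.42 ± 0.82 (adjusted p = 0.259 by limma). This difference was called in the fit of the 6 iPS and leukemia arrays alone (1.42 ± 0.13, adjusted p = 2.12e-05 by limma). With array weights, Krt13 was called higher than leukemia in iPS cells (adjusted p = 0.00451 by limma) and in GFP+ colonies (adjusted p = 0.0322). Krt4, the partner of Krt13, had levels of 5.25, 4.88 and 5.23 in leukemia, 5.08, 5.06 and 5.03 in GFP+ colonies, 5.33, 4.86 and 5.21 in GFP- colonies and 5.02, 5.02 and 5.01 in iPS cells. Krt76, a keratin of the palate, had levels of 5.11, 5.24 and 5.65 in leukemia, 5.44, 4.93 and 5.36 in GFP+ colonies, 5.74, 5.27 and 5.18 in GFP- colonies and 4.84, 5.27 and 5.26 in iPS cells. Neither left the 1 log2 band around its leukemia mean.

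The 5 other stratified keratins stayed within the same band on all arrays. Krt9, the keratin of footpad epidermis, had levels of 5.22, 5.29 and 5.31 in leukemia, 5.29, 5.05 and 5.19 in GFP+ colonies, 5.10, 4.97 and 5.11 in GFP- colonies and 4.90, 5.08 and 4.88 in iPS cells. Its difference of -0.31 ± 0.10 between iPS cells and leukemia was called (adjusted p = 0.0432 by limma), but this held in 1 of 6 leave-one-out fits, the 1 without iPS replicate 2, and was lost after cyclic loess normalisation. Krt12, the keratin of corneal epithelium, had levels of 5.88, 5.83 and 5.78 in leukemia, 5.91, 5.83 and 5.82 in GFP+ colonies, 6.28, 5.83 and 5.65 in GFP- colonies and 5.46, 5.90 and 5.81 in iPS cells. Krt24 had levels of 5.08, 5.04 and 5.04 in leukemia, 4.83, 4.75 and 5.14 in GFP+ colonies, 5.23, 5.11 and 5.44 in GFP- colonies and 4.91, 4.84 and 5.06 in iPS cells. Krt78 and Krt79 were as flat as Krt12 and Krt24. Krt78 had levels of 5.93, 5.38 and 5.59 in leukemia, 5.79, 5.67 and 5.59 in GFP+ colonies, 5.52, 5.57 and 5.33 in GFP- colonies and 5.72, 5.59 and 5.73 in iPS cells. Krt79, a keratin of the hair canal in mouse, had levels of 5.65, 5.82 and 5.48 in leukemia, 5.42, 5.45 and 5.20 in GFP+ colonies, 5.40, 5.77 and 5.62 in GFP- colonies and 5.53, 5.79 and 5.55 in iPS cells.

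Krt42 was highest in iPS cells. This type I keratin, known from mouse nail, had levels of 6.69, 6.65 and 6.60 in leukemia, 7.52, 8.84 and 7.07 in GFP+ colonies, 7.18, 7.48 and 8.68 in GFP- colonies and 9.58, 9.77 and 9.61 in iPS cells. The iPS arrays stood above every other array, and the colony arrays lay between them and leukemia. Krt42 was higher in iPS cells than in leukemia by 3.01 ± 0.44 (8.05-fold, adjusted p = 0.000631 by limma), a call kept under all alternatives run. Its differences of 1.16 ± 0.44 in GFP+ colonies (adjusted p = 0.0894) and 1.14 ± 0.44 in GFP- colonies (adjusted p = 0.0985) were not called in the fit of all arrays. Both were called with array weights (adjusted p = 0.0103 and 0.0146 by limma). Without GFP+ replicate 3 and GFP- replicate 1 they were also called (1.53 ± 0.38, adjusted p = 0.0115, and 1.43 ± 0.38, adjusted p = 0.0162 by limma). The GFP- difference was called without GFP- replicate 1 alone as well (adjusted p = 0.0421 by limma). Krt80, a type II keratin of differentiating epithelia, had levels of 7.05, 6.89 and 7.04 in leukemia, 9.24, 8.21 and 10.13 in GFP+ colonies, 9.91, 7.91 and 6.21 in GFP- colonies and 6.02, 6.32 and 6.24 in iPS cells. It was not called between GFP+ colonies and leukemia (2.20 ± 0.75, adjusted p = 0.0612 by limma), although these arrays did not overlap. It was called in the fit of the 6 arrays compared (2.20 ± 0.44, adjusted p = 0.0143 by limma), with array weights (adjusted p = 0.00161), without dim genes (adjusted p = 0.0453), without GFP+ replicate 2 (adjusted p = 0.041) and without GFP+ replicate 3 and GFP- replicate 1 (1.73 ± 0.43, adjusted p = 0.011). Krt88, Krt90 and Krt222 were called in 0 of the 6 comparisons, and the highest of their values was 6.77 for Krt90 on GFP+ replicate 3.

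The 24 hair keratins were nearly flat. Their levels ran between 3.41 and 7.98 with a median of 5.53, and all of them lay between -0.84 and 0.72 of their own leukemia mean on all arrays. Krt87 was called higher in all 3 groups than in leukemia, by 0.62 ± 0.13 in GFP+ colonies (adjusted p = 0.00537 by limma), 0.49 ± 0.13 in GFP- colonies (adjusted p = 0.0187) and 0.56 ± 0.13 in iPS cells (adjusted p = 0.00791). It averaged 3.84 ± 0.14 in leukemia, 4.46 ± 0.16 in GFP+ colonies, 4.33 ± 0.07 in GFP- colonies and 4.40 ± 0.17 in iPS cells (SD, n = 3 each), and its leukemia arrays lay below all others. The GFP- call was lost without leukemia replicate 1 or 2. Small decreases were also called by limma, Krt25 (-0.47 ± 0.14, adjusted p = 0.0408) and Krt86 (-0.54 ± 0.17, adjusted p = 0.0398) in GFP- colonies and Krt34 (-0.46 ± 0.15, adjusted p = 0.0479) in iPS cells. They held in 1, 2 and 0 of 6 leave-one-out fits in that order, and all of them lost their call after cyclic loess normalisation. Over the whole family, 37 of 53 genes stayed within 1 log2 of leukemia on all arrays, 24 of 24 hair, 10 of 18 stratified, 1 of 6 simple and 2 of 5 other keratins, while 14879 of all 22180 genes did.

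Some of these keratins were also called higher than leukemia in GFP- colonies and iPS cells, but the called share of the family was near or below that of all genes. In GFP- colonies 6 keratins (11.3%) were higher and 3 (5.66%) lower than in leukemia by limma, while 9.02% of all genes were higher and 12% lower (21% in either direction). The higher keratins were Krt7, Krt8, Krt18, Krt19, Krt17 and Krt87. By class, 4 of 6 simple and 1 of 18 stratified keratins were called higher, with medians of 2.56 and 0.15, against -0.01 over all genes. The count fell to 3 without leukemia replicate 2, 5 without leukemia replicate 3, and 4 without GFP- replicate 2. With no share of all genes given for these fits, the fall cannot be read as particular to keratins. The calls of Krt7, Krt8 and Krt19 were lost in the fit of only the 6 arrays compared, where 14.9% of all genes were called. After cyclic loess normalisation the split was 6 higher and 0 lower, which are the same 6 genes. The arrays did not overlap for 10 higher and 6 lower keratins, while 16.4% and 20.9% of all genes stood apart in these directions. Without GFP- replicate 1 and GFP+ replicate 3, 7 keratins were higher and 4 lower, with 16.1% and 16.8% over all genes.

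In iPS cells 5 keratins were higher (Krt18, Krt19, Krt17, Krt87 and Krt42) and 2 lower (Krt9 and Krt34) than in leukemia by limma. These were 9.43% and 3.77% of the family, while 12.4% of all genes were higher and 11.9% lower, 24.3% in either direction. The median over the simple class was 1.15, and over the stratified class 0.01, against -0.03 over all genes. Cyclic loess normalisation gave 5 higher and 0 lower. Without any 1 of the leukemia or iPS arrays, between 4 and 5 keratins were called, with 4 called without leukemia replicate 1 or 3 and without iPS replicate 1 or 3. No share of all genes is given for these fits, so this cannot be read as particular to keratins. The fit of only the 6 arrays compared called 13, adding Krt8, Krt14, Krt16 and Krt13 as higher and Krt10 and Krt80 as lower, while 47.5% of all genes were called in that fit. Non-overlapping arrays were seen for 9 higher and 8 lower keratins, with 27.8% and 28.7% over all genes.

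**Figure D3:**
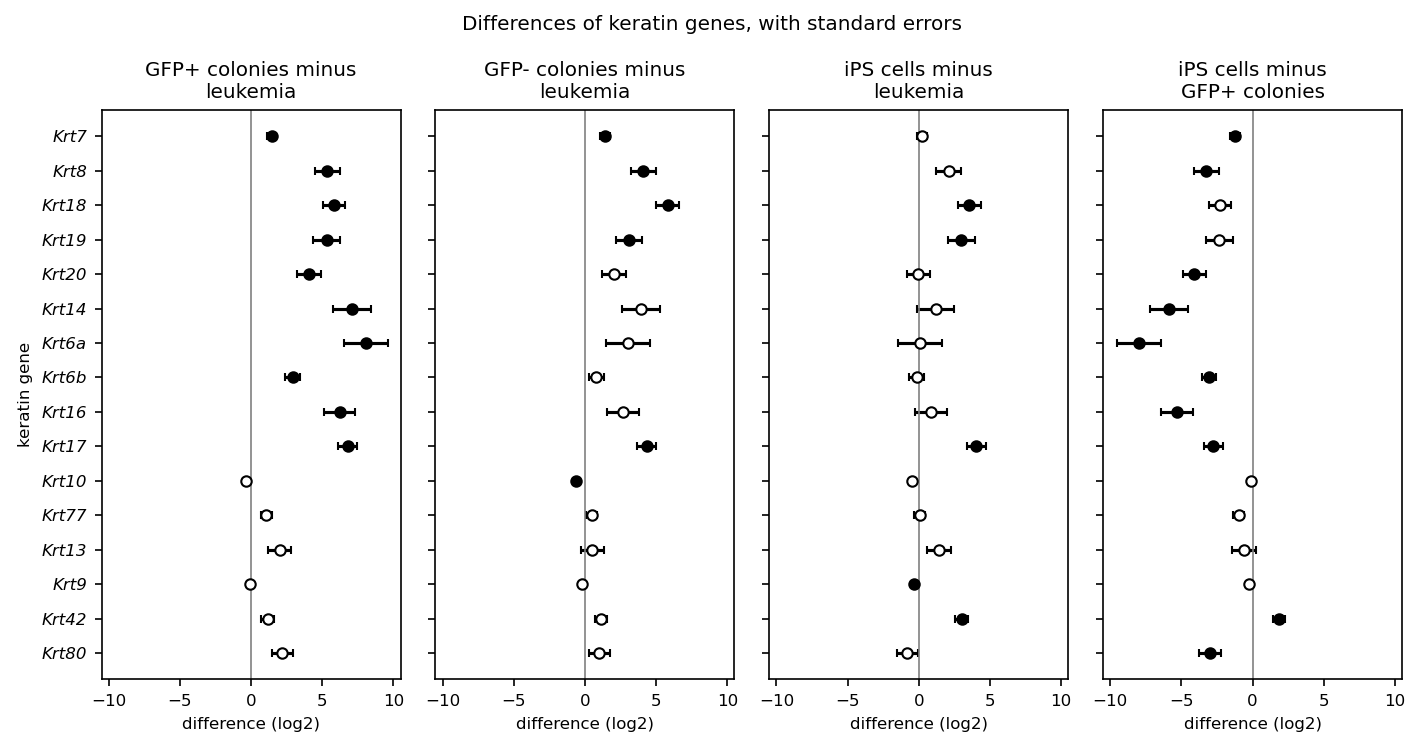
Difference of log2 level for 16 keratin genes (rows) in 4 comparisons (panels), with bars of ± 1 standard error from limma. Filled points passed an adjusted p of 0.05 and open points did not. Krt14, Krt6a, Krt6b, Krt16 and Krt20 are far above 0 in GFP+ colonies against leukemia. In iPS cells against leukemia Krt6a, Krt6b and Krt20 are near 0, Krt14 and Krt16 have open points at 1.18 and 0.88, and Krt17, Krt18, Krt19 and Krt42 have filled points above 0.

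iPS cells against GFP+ colonies gave the counterpart of the first comparison. In iPS cells 9 keratins were lower and 1 higher than in GFP+ colonies by limma, while 4.23% of all genes were lower and 6.15% higher (10.4% in either direction). All 4 wound-associated keratins were lower, with a median of -4.19. Krt6a averaged 4.12 ± 0.25 in iPS cells and 12.11 ± 0.70 in GFP+ colonies (SD, n = 3 each), and the difference of -7.99 ± 1.54 (adjusted p = 0.013 by limma) was the most negative of all 22180 genes. Krt14 differed by -5.89 ± 1.32 (adjusted p = 0.0228), Krt16 by -5.32 ± 1.12 (adjusted p = 0.0181) and Krt6b by -3.06 ± 0.52 (adjusted p = 0.0084). Krt17 fell by 2.75 on the log2 scale (adjusted p = 0.0289 by limma) and kept a mean of 9.20 ± 0.09 in iPS cells, against 11.95 ± 0.15 in GFP+ colonies. Whether its decrease differs from that of Krt6a was not tested.

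Of the simple keratins 3 of 6 were lower in iPS cells than in GFP+ colonies, Krt20 by -4.08 ± 0.84 (adjusted p = 0.0172 by limma), Krt8 by -3.25 ± 0.87 (adjusted p = 0.0411) and Krt7 by -1.22 ± 0.34 (adjusted p = 0.0487). Krt18 (-2.28, adjusted p = 0.0943) and Krt19 (-2.34, adjusted p = 0.141) were not called. Krt80 was also lower, by -3.00 ± 0.75 (adjusted p = 0.033), and Krt42 was higher by 1.85 ± 0.44 (adjusted p = 0.0285). The arrays did not overlap for 14 lower and 3 higher keratins, while 17.1% and 21% of all genes stood apart in these directions. The count of 10 depended on single arrays, and 2 keratins were called without GFP+ replicate 1 or without GFP+ replicate 3, and 1 without any single iPS array. The shares of all genes called in the leave-one-out fits are not given here, so this fall cannot be read as particular to keratins. Krt6b was called in all 6 of these fits and Krt6a in 3. The differences themselves moved little, and that of Krt6a lay between -8.24 and -7.59 over the 6 fits. Without both GFP+ replicate 3 and GFP- replicate 1, 11 keratins were lower and 1 higher, while 9.29% of all genes were lower and 11.2% higher.

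Between GFP- and GFP+ colonies 0 of 53 keratins were called by limma, as were 0% of all genes, and 10 of the 53 had an unadjusted p under 0.05, among 1413 of all genes. Yet the means lay far apart. Krt6a averaged 7.07 ± 4.23 in GFP- colonies and 12.11 ± 0.70 in GFP+ colonies (SD, n = 3 each), a difference of -5.04 ± 1.54 (adjusted p = 0.731) that was the most negative of all genes. Krt16 differed by -3.54 ± 1.12 (adjusted p = 0.731), Krt14 by -3.15 ± 1.32 (adjusted p = 0.76) and Krt17 by -2.43 ± 0.66 (adjusted p = 0.708). The 3 GFP- arrays of Krt6b and of Krt17 all lay below the 3 GFP+ arrays. In all, 5 keratins stood apart as lower and 3 as higher, against 2.23% and 4.31% of all genes.

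The 3 GFP- arrays held different keratin profiles. GFP- replicate 1 had 12 keratins over 1 log2 above leukemia, as against 12 or 13 on the GFP+ arrays, GFP- replicate 2 had 9 and GFP- replicate 3 had 4. These are 22.6%, 17% and 7.55% of the family, while 9.35%, 8.05% and 8.76% of all genes passed the same mark on these arrays. The median over the simple keratins of the level minus the leukemia mean was 4.11 to 4.72 on the GFP+ arrays, 5.05, 2.54 and 0.52 on GFP- replicates 1, 2 and 3, and 1.08 to 1.26 on the iPS arrays. Over the wound-associated keratins it was 6.08 to 6.97 in GFP+ colonies, 6.22, 1.49 and 0.12 on the same GFP- arrays, and 0.46 to 0.57 in iPS cells. On GFP- replicate 2 the simple pair was still high. Krt6a had 5.22 there, over 1 log2 above its leukemia mean of 4.04 but far below its GFP+ levels of 11.63 to 12.92. Without GFP- replicate 1, limma called 7 keratins lower in GFP- than in GFP+ colonies, Krt6a (-7.46 ± 0.41, adjusted p = 4.07e-05), Krt16, Krt14, Krt19, Krt17, Krt20 and Krt6b, while 3.46% of all genes were called lower and 1.13% higher. The array left out had the highest level of each of these 7 among the GFP- arrays and was singled out after its values were seen. Its removal lowered their GFP- means, so these calls, which rest on GFP- replicates 2 and 3, are no independent test of a difference. The same 7 were called when GFP+ replicate 3 was left out as well, where 3.5% of all genes were lower and 1.23% higher. The highest SD of any keratin was 0.56 in leukemia, 2.23 in GFP+ colonies, 4.23 in GFP- colonies and 0.36 in iPS cells.

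Between iPS cells and GFP- colonies 1 keratin was called, Krt42, which was higher by 1.87 ± 0.44 (adjusted p = 0.043 by limma), while 4.25% of all genes were called, 2.94% as higher and 1.32% as lower. The call held in 1 of 6 leave-one-out fits. The 1 that kept it left out GFP- replicate 3, and there 6 keratins were also lower in iPS cells, Krt14 (-4.62 ± 0.73, adjusted p = 0.00847), Krt8 (-3.38 ± 0.26, adjusted p = 0.000188), Krt18 (-3.33 ± 0.53, adjusted p = 0.00847), Krt20, Krt80 and Krt7, while 4.61% of all genes were called higher and 3.3% lower. The array left out had the lowest level of each of these 6 among the GFP- arrays, so its removal raised their GFP- means. For Krt42 it had the highest GFP- level, 8.68, so its removal lowered that GFP- mean and widened the difference to 2.32 ± 0.40. In the other 5 fits, without GFP- replicate 1 or 2 or without any 1 iPS array, 0 keratins were called. With all arrays, Krt8 differed by -2.01 (adjusted p = 0.235) and Krt14 by -2.74 (adjusted p = 0.284). Non-overlapping arrays were seen for 4 higher and 6 lower keratins, while 15.3% and 11.8% of all genes stood apart. Without GFP- replicate 1 and GFP+ replicate 3, 3 keratins were higher and 0 lower, Krt13, Krt17 and Krt42, while 5.85% of all genes were higher and 4.17% lower.

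**Figure D4:**
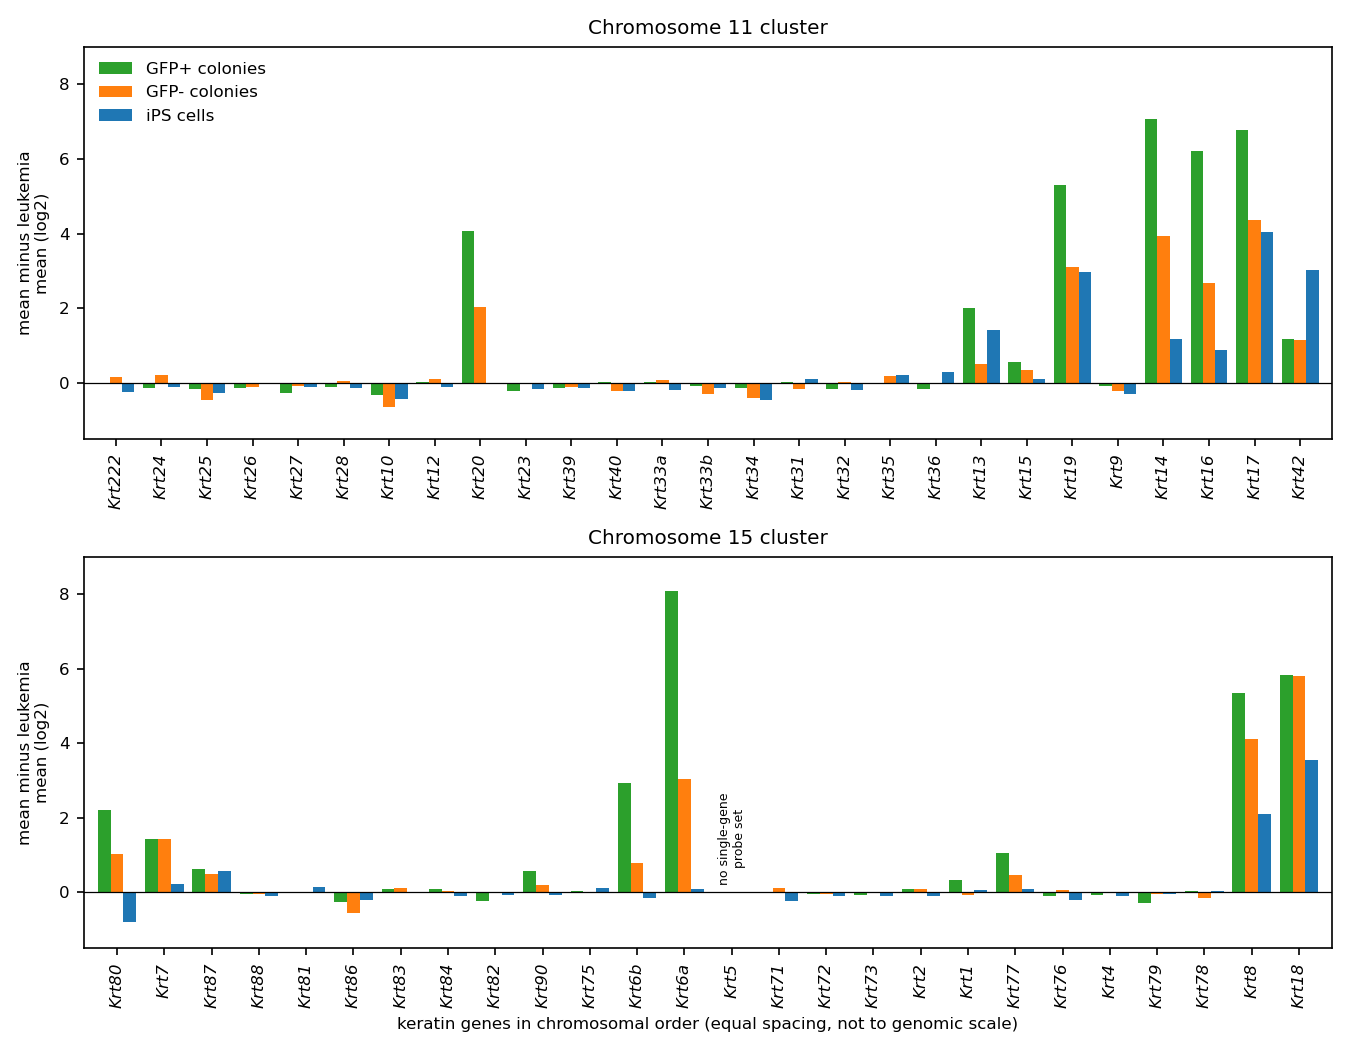
Mean log2 level minus the leukemia mean (vertical axis) of keratin genes in chromosomal order on chromosomes 11 and 15 (equal spacing), with bars for GFP+ colonies, GFP- colonies and iPS cells. Tall bars sit at the Krt14, Krt16 and Krt17 neighbours, at Krt6a and at the Krt8 and Krt18 neighbours, with flat genes between; Krt5 had no probe set of its own.

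Neighbours in the clusters did not always move alike. On chromosome 11, Krt14, Krt16, Krt17 and Krt42 are neighbours, and the first 3 were highest in GFP+ colonies while Krt42 was highest in iPS cells. Krt9, flat on all arrays, lies between Krt19 and Krt14, which rose by 5.31 and 7.07 in GFP+ colonies. On chromosome 15, Krt6b and Krt6a adjoin each other within the cluster, and Krt8 and Krt18 stand together at one end of it. No measured member drawn between Krt6a and Krt8 was called in any comparison by the limma fit of all arrays. Krt1 and Krt77, which lie there, were called in some of the other fits given above.

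Proteins that anchor keratin filaments to desmosomes and hemidesmosomes moved in the same comparisons. Of 17 such genes 14 were higher and 0 lower in GFP+ colonies than in leukemia by limma, with a median of 3.50, against 9.6% of all genes higher and a median of -0.04. The desmosomal cadherin Dsg3 (5.39 ± 1.11, adjusted p = 0.00561), Perp (5.21 ± 0.71, adjusted p = 0.000435) and the cadherin Dsg2 led them. In GFP- colonies 6 were higher than in leukemia, with 9.02% of all genes, and in iPS cells 6, with 12.4% of all genes, and 0 were lower. Against GFP+ colonies, 8 of the 17 were lower in iPS cells, with 4.23% of all genes, among them Dsg3 (-5.40 ± 1.11, adjusted p = 0.0167) and Dsp, the plaque protein that binds keratins (-4.11 ± 0.91, adjusted p = 0.0219). Perp averaged 9.38 in iPS cells, against 10.58 in GFP+ colonies, and was not called (adjusted p = 0.305). Without GFP+ replicate 3 and GFP- replicate 1, 15 of the 17 were higher in GFP+ colonies and 7 in GFP- colonies than in leukemia, and 10 were lower in iPS cells than in GFP+ colonies. The shares of all genes in these directions were 15.7%, 16.1% and 9.29% in that order.

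Of 14 transcription factors known to act on keratin genes, 7 were higher and 1 lower in GFP+ colonies than in leukemia by limma, against 9.6% and 12.3% of all genes. The counts were 10 and 1 without GFP+ replicate 3 and GFP- replicate 1, where 15.7% of all genes were higher and 16.9% lower. Tfap2a, a regulator of basal epidermal genes, was higher by 3.56 ± 0.81 (adjusted p = 0.00941), Grhl2, a factor of epithelial identity, by 3.55 ± 0.18 (adjusted p = 3.66e-07), and Elf3 by 3.35 ± 0.20 (adjusted p = 1.32e-06). Grhl2 stayed at this height, at a mean of 8.57 in iPS cells and 8.53 in GFP+ colonies, while Tfap2a averaged 4.91 in iPS cells and 8.46 in GFP+ colonies (-3.55 ± 0.81, adjusted p = 0.0237). Trp63, the master factor of stratified epithelium, averaged 5.85 in GFP+ colonies and 5.13 in leukemia, a difference of 0.72 ± 0.25 that was not called (adjusted p = 0.0662). Of 15 other intermediate filament genes, 2 were higher and 1 lower in GFP+ colonies than in leukemia, near the 9.6% and 12.3% of all genes. Without GFP+ replicate 3 and GFP- replicate 1 the counts were 5 and 4, while the shares of all genes rose to 15.7% and 16.9%. The neurofilament gene Nefl was higher by 3.33 ± 0.31 (adjusted p = 3.11e-05). Vim, the vimentin gene, averaged 8.74 in GFP+ colonies and 9.36 in leukemia (-0.62 ± 0.21, adjusted p = 0.0572), and was higher in iPS cells than in GFP+ colonies by 1.38 ± 0.21 (adjusted p = 0.00517). Of the 8 fibroblast markers 5 were also higher in iPS cells than in GFP+ colonies, against 6.15% of all genes. Among the 5 were Lum (1.64 ± 0.30, adjusted p = 0.00992 by limma) and Col1a1 (1.18 ± 0.32, adjusted p = 0.0416). The part of these markers in the Vim value was not tested.

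Some keratinocyte markers outside the keratin family were higher in GFP+ colonies. Their mean over 9 genes lay between 5.81 and 5.90 on the leukemia arrays, between 8.26 and 8.83 on the GFP+ arrays, at 9.18, 6.55 and 5.72 on the GFP- arrays, and between 5.88 and 5.96 on the iPS arrays. Of the 9, 5 were higher and 0 lower in GFP+ colonies than in leukemia by limma, among them the cornified envelope genes Sprr1a (4.79 ± 1.02, adjusted p = 0.0069) and Ivl (4.71 ± 1.12, adjusted p = 0.0118). Of all genes 9.6% were higher and 12.3% lower in this comparison. Trp63, Sfn, Lgals7 and Sprr1b were not called there. In GFP- colonies or iPS cells against leukemia 0 of the 9 were called, while 21% and 24.3% of all genes were. Against GFP+ colonies, 5 of the 9 were lower in iPS cells, while 4.23% of all genes were lower. Without GFP+ replicate 3 and GFP- replicate 1, 7 of the 9 were higher in GFP+ colonies than in leukemia and 7 lower in iPS cells than in GFP+ colonies. The shares of all genes in these directions were 15.7% and 9.29%. Itgb4, Dsg3 and Dsc3 stand in both this list and that of the anchors, and all of them are among the 5 called higher in GFP+ colonies. The counts of these lists are therefore not separate. Trp63 stands in both this list and that of the transcription factors. Elf5, Tfap2c and Cdx2 stand in both the transcription factors and the trophoblast markers. Elf5 was the trophoblast marker called higher in GFP+ colonies than in leukemia (2.54 ± 0.76, adjusted p = 0.0359 by limma), and it is also among the 7 factors called higher. The 6 trophoblast markers averaged between 5.73 and 6.27 in GFP+ colonies, against 5.05 to 5.22 in leukemia, with 1 of 6 called. The 6 endoderm markers averaged between 5.98 and 6.26, against 5.66 to 5.83, with 1 of 6 called, while 21.9% of all genes were called. The part of such cells in the keratin levels was not tested.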

How the data were processed

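Total RNA of 12 samples was extracted with Trizol and biotin-labelled for Affymetrix arrays, as the labels' protocols state. What the authors deposited are log2 values of probe-set signal after RMA, named in the submitters' processing notes without a version. RMA equalises the distributions of the arrays, whose medians lay between 5.76 and 5.82, so a shift of most genes would be removed. No detection values were used, and precision is limited by the 3 arrays per group.

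Of 41345 probe sets, 23521 had 1 gene symbol, 1814 several and 16010 none here. The brightest probe set of each symbol gave 22180 genes, and all 53 keratin genes matched RefSeq by Entrez ID. A mean per group was fitted to the 12 arrays with limma 3.58.1 in R 4.3.3 (empirical Bayes), and 6 comparisons were taken from it. The fit was also tested on simulated data with known changes. Comparisons that share a group are not independent.

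The members, gene lists, classes and alternatives were chosen with earlier results of these data known. Simple and stratified keratins were described gene by gene, hair keratins by range, and other members where called or among the 5 largest differences; up to 3 called members of each other list were named, with Trp63, Vim and the marker genes named as points of orientation after their values were seen. The alternatives were other fits, normalisations and filters, and each array left out in turn.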

Additional observations from a re-analysis of the deposited data

Results flagged for a closer look

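One keratin signal lay outside the comparisons. A probe set annotated to both Krt5 and Krt6a, left out because it names more than 1 gene, read 6.17, 6.22 and 6.07 in leukemia, 6.74, 6.91 and 6.58 in GFP+ colonies, 7.09, 5.78 and 6.01 in GFP- colonies and 6.03, 6.16 and 6.35 in iPS cells. It averaged 0.59 more in GFP+ colonies than in leukemia, and which of the 2 genes it reads was not tested. Krt5, the partner of Krt14, has no other probe set in the table used here.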

How the results depend on the processing

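Over 71 keratin results and 978 alternative values, 799 kept their direction and their side of the threshold, 114 lost the threshold, 64 gained it and 1 changed sign: Krt8 in GFP- against GFP+ colonies ran from -2.17 without GFP- replicate 1 to 0.12 without GFP- replicate 3, and was -1.24 with all arrays. Of 38 called results, 16 were kept under all alternatives that tested them, 10 of them in GFP+ colonies against leukemia. The 16 include Krt87 in GFP+ colonies and in iPS cells against leukemia, a dim gene that the fit without dim genes did not test. With each array left out in turn, the number of called keratins was 10 to 14 in GFP+ colonies against leukemia (11 with all arrays), 3 to 11 in GFP- colonies against leukemia (9), 4 to 5 in iPS cells against leukemia (7), 0 to 7 in GFP- against GFP+ colonies (0), 1 to 10 in iPS cells against GFP+ colonies (10) and 0 to 7 in iPS cells against GFP- colonies (1). Fitting only the 6 arrays compared gave 4 in GFP- colonies against leukemia, 13 in iPS cells against leukemia and 0 in iPS cells against GFP- colonies. Array weights gave 14, 12 and 7 in these comparisons, and 3 in GFP- against GFP+ colonies. Leaving out both GFP+ replicate 3 and GFP- replicate 1 gave 7 in GFP- against GFP+ colonies and 3 in iPS cells against GFP- colonies. With the replicate number as a block, 0 keratins were called in iPS cells against GFP- colonies, and 12, 7, 5, 0 and 9 in the other comparisons in the order above. Deviations from the group means of same-numbered arrays had r between -0.377 and 0.322, over 0.1 in 2 of 18 pairs. Both of these were between GFP+ and GFP- colonies, 0.168 for replicate 1 and 0.322 for replicate 2, while replicate 3 had -0.377. The numbers were not taken to pair the arrays, but with 3 arrays per group this check cannot exclude a pairing. For most alternatives the share of all genes called is not given here, so the changes in count cannot be read as particular to keratins. The cause of these changes was not tested. No detection values were used, so how far each keratin probe set lies above background is unknown.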
